A study of Homo sapiens with 6 samples.

Results

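The semaphorins are a family of guidance proteins, and the plexins and neuropilins are their main receptors. The genes described here are the rows of the authors' deposited table named SEMA3 to SEMA7, PLXNA to PLXND, NRP1 or NRP2, without antisense RNAs. They were selected on their names, and the split at a mean normalized count of 10 used the pooled level. They number 31 of 26364 genes, with 20 semaphorins, 9 plexins and 2 neuropilins. The minimum mean of 10 was reached by 22 of them, and these 22 are also the genes with an adjusted p. The lowest of the 22 was SEMA4G with a mean of 10.6 in the authors' deposited table, and the highest below the minimum was SEMA3G with 5.93.

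The RNA came from REH, a human cell line that grew out of an acute lymphoblastic leukaemia of B-cell precursors, so every value describes this 1 line in culture. The S3I-201 group received S3I-201, a compound aimed at the transcription factor STAT3, at 50 µM for 6 h, and the DMSO group received the solvent DMSO for 6 h. Each group held 3 libraries, which the series describes as independent experiments. For each gene the authors' deposited table holds 1 pooled value of its level, of its log2 fold change, and of its unadjusted and adjusted p, with no value per library. Size factors read from its rarest genes correspond to about 6600000 to 14500000 counts per library. Which group was the base of the fold change is not stated. A positive value is taken here to mean a higher level with S3I-201 than with DMSO; were it coded the other way, each direction below would turn, and the S3I-201 libraries named below would be DMSO libraries. The fold changes appear to be shrunken towards 0, as genes with a single read stood at only 0.033 to 0.042 on the log2 scale of the authors' deposited table. Of 14 B-precursor markers, 13 had means of 1041 to 13622 and VPREB1 was listed at 0 in the authors' deposited table. Of the 12 tested markers of this list 11 had a negative fold change, with a median of -0.23 on the log2 scale against -0.02 over all tested genes. CD24, a surface glycoprotein, had -0.61 (DESeq2 adjusted p = 0.00505) and LEF1, a transcription factor, had -0.49 (DESeq2 adjusted p = 0.0044) in the authors' deposited table, so 2 of the 12 were lower at an adjusted p under 0.05, against 1.45% of all tested genes. The part of this in the results that follow was not tested. Of 14 markers of other blood cells, 8 were listed at 0 and 5 had means from 0.266 to 13.7, while the myeloid gene MPO stood at 978 in the authors' deposited table.

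Semaphorins share an extracellular sema domain that binds the sema domain of a plexin. Class 3 semaphorins are secreted, and most of them need a neuropilin as the binding partner beside the plexin, whereas classes 4 to 6 are transmembrane proteins and SEMA7A is held in the membrane by a lipid anchor. The cytoplasmic part of a plexin acts on small GTPases of the Ras and Rap families and, in the B class, recruits exchange factors for RhoA. The pathway was first described in the growing axon, and it also steers blood vessels and the movement and contacts of immune cells, in which SEMA4D, known as CD100, is a classic surface molecule.

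In REH cells 3 members were higher with S3I-201, the ligand SEMA7A and the receptors PLXNB2 and PLXNA1, and none was lower by the authors' DESeq2 adjusted p at 0.05. SEMA7A was 4.56-fold higher, PLXNB2 1.57-fold and PLXNA1 1.55-fold in the authors' deposited table. The other 19 of the 22 tested members did not pass, and 7 of the 22 had an unadjusted p under 0.05. Beside the 3 called genes these were PLXNB3, with a positive fold change, and SEMA3A, SEMA6A and SEMA4C, with negative ones. Those 3 calls make 13.6% of the 22, against 5.90% of all 11912 tested genes, of which 4.45% were higher and 1.45% lower. An unadjusted p under 0.05 was reached by 16.0% of all tested genes. At an adjusted p under 0.01 only SEMA7A of the members remained, against 3.71% of all tested genes, and at 0.1 there were 4 members, against 7.54%. With a change of at least 1 on top of the 0.05 threshold SEMA7A alone was left, against 1.49% of tested genes. The 3 calls held when p-values were adjusted over every gene that has one, where 3.79% were called, and with the trend of fold changes over abundance taken off, where 5.99% were. SEMA7A was known to be among the largest increases when the family was chosen, so nothing is read from these shares. The median log2 fold change of the 22 was -0.02, the same as over all tested genes at -0.02, and 11 were positive and 11 negative in the authors' deposited table.

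**Figure D1:**
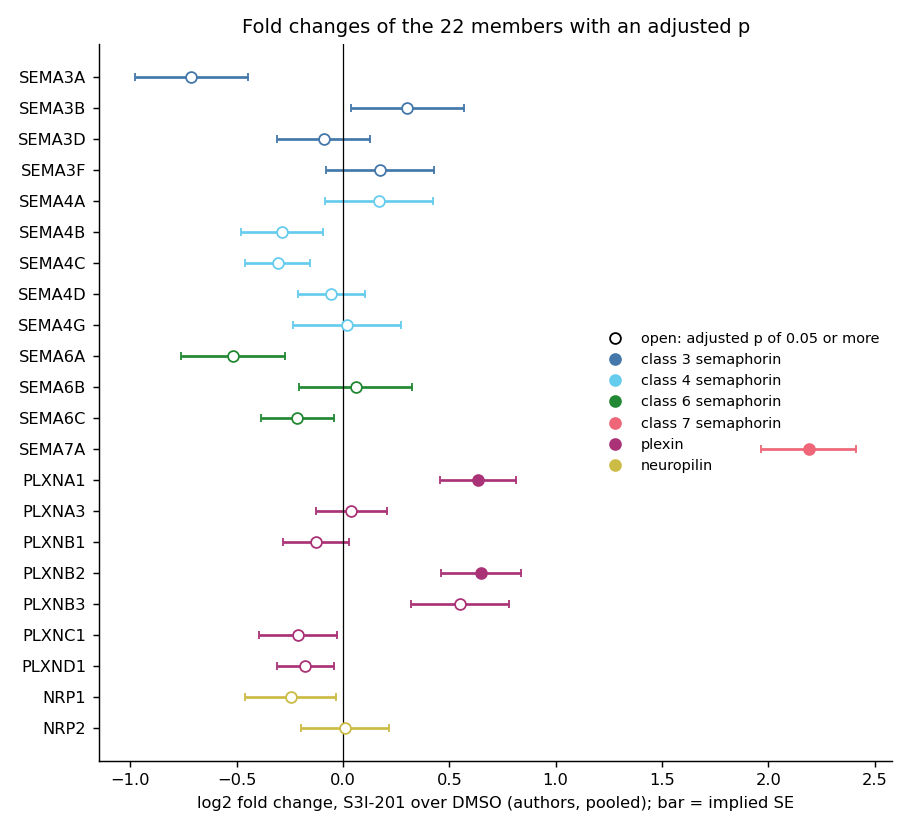
Log2 fold change of the 22 members with an adjusted p, S3I-201 over DMSO, as deposited (x axis) for each gene (y axis), with bars of 1 implied SE; filled points have an adjusted p under 0.05. SEMA7A stands apart at 2.19, PLXNB2 and PLXNA1 lie at 0.65 and 0.63, and the lowest value is that of SEMA3A at -0.71.

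SEMA7A, the lipid-anchored semaphorin, averaged 139.6 normalized counts over the 6 libraries in the authors' deposited table. It rose by 2.19 with S3I-201 on the log2 scale of the authors' deposited table (adjusted p = 1.30e-19 by DESeq2). The implied SE was 0.22, obtained by dividing the fold change by the normal deviate that matches its p-value, and the 95% interval built from it ran from 1.75 to 2.63. With the pooled mean, this fold change corresponds to group means of about 229.1 normalized counts with S3I-201 and 50.2 with DMSO. These 2 numbers are implied by the pooled values and are not measured per library. They carry the shrinkage of the fold change, so the group means may lie further apart. Of the 11912 tested genes, 9 had a larger fold change and 11 a smaller adjusted p. The gene lies on chromosome 15 from 74409289 to 74433958 on the minus strand (hg38, GENCODE 29), and no other annotated exon overlaps its exons.

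Of the receptor genes known for SEMA7A, PLXNC1 and ITGB1 did not pass and ITGA1 was not tested. PLXNC1, its plexin, had a mean of 255.8, and its log2 fold change in the authors' deposited table was -0.21 (implied SE 0.18, DESeq2 adjusted p = 0.665), and its 95% interval ran from -0.57 to 0.15. Integrin alpha 1 beta 1 is the other receptor. ITGB1 had a mean of 792.6, and its log2 fold change in the authors' deposited table was 0.01 (DESeq2 adjusted p = 0.989), while ITGA1 had a mean of only 0.316.

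PLXNB2, a B-class plexin and a receptor for SEMA4C, had the highest mean of the members in the authors' deposited table, 4821 normalized counts. It rose by 0.65 with S3I-201 on the log2 scale of the authors' deposited table (implied SE 0.19, DESeq2 adjusted p = 0.0132). The implied group means were about 5890 normalized counts with S3I-201 and 3751 with DMSO. PLXNA1, an A-class plexin that carries class 3 and class 6 signals, had a mean of 1595 and rose by 0.63 in the authors' deposited table (implied SE 0.18, DESeq2 adjusted p = 0.0103). Its implied group means were about 1940.0 with S3I-201 and 1250.0 with DMSO. By size of fold change, 416 of the 11912 tested genes stood above PLXNB2 and 446 above PLXNA1, against 9 above SEMA7A. PLXNB2 lies on chromosome 22 from 50274979 to 50307627 (minus strand) and PLXNA1 on chromosome 3 from 126988594 to 127037392 (plus strand; hg38, GENCODE 29).

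Promoter windows of the 3 members that rose are shown because the compound is directed at STAT3, a factor that binds the palindrome TTCNNNGAA. They come from RefSeq (GRCh38.p14) and run from 250 bases before to 50 bases after an annotated start, 5′ to 3′ on the gene's strand. Lower case marks the plain sequence, and capitals mark matches on either strand to TGANNNNGC. This is a loose form of the antioxidant response element core that leaves the base after TGA open. A match need not hold the stricter core.
SEMA7A, chr15:74433909-74434208, minus strand: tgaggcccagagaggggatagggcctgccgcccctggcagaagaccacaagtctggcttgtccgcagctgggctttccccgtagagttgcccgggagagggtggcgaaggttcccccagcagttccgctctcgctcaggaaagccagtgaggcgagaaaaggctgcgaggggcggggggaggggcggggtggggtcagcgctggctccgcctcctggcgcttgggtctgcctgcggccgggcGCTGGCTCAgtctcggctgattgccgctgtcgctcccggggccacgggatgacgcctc
PLXNB2, chr22:50301620-50301919, minus strand: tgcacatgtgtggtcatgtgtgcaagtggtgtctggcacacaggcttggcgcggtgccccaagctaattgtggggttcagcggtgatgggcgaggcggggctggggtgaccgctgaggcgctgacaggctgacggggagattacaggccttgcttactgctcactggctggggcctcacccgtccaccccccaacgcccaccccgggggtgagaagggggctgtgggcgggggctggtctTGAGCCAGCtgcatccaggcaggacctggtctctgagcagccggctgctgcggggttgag
PLXNA1, chr3:126982865-126983164, plus strand: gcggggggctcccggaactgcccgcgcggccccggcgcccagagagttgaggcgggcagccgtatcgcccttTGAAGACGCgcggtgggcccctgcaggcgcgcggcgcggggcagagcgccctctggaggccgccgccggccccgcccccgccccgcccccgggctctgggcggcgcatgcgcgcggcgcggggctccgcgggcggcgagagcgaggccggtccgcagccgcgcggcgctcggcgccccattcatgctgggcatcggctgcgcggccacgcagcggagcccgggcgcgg

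The 3 windows held 0 matches to TTCNNNGAA and 0 to TGATGNAA, the C/EBP-ATF response element, searched on both strands. Each held 1 match to TGANNNNGC, at -8 to 0 bases from the start in SEMA7A, -10 to -2 in PLXNB2 and -178 to -170 in PLXNA1. That loose pattern is short and frequent, since 41.8% of all 35116 RefSeq windows held it, as did 41.7% of the 48 windows of the members. A second RefSeq window of SEMA7A starts 254 bases further into the gene and also held 1 match to this pattern and 0 to the others. The RefSeq start of PLXNB2 used here lies 5958 bases inside the gene as GENCODE draws it, and that of PLXNA1 lies 5479 bases before it, so other starts were not searched. Windows were found for 27 of the 31 members, and NRP1, SEMA3A, SEMA6A and SEMA6B had no entry. Of the 48 member windows 1, of SEMA3E, held TTCNNNGAA, which is 2.08%, against 7.66% of all windows. TGATGNAA was held by 2, of SEMA3C and SEMA4A, which is 4.17%, against 3.62% of all. The member windows had a median GC share of 65.0%, against 58.7% over all windows. The part of this in the shares of matches was not tested. SEMA3E and SEMA3C were listed at 0 in the authors' deposited table, and SEMA4A did not pass. A match is a run of letters and not a binding site.

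**Figure D2:**
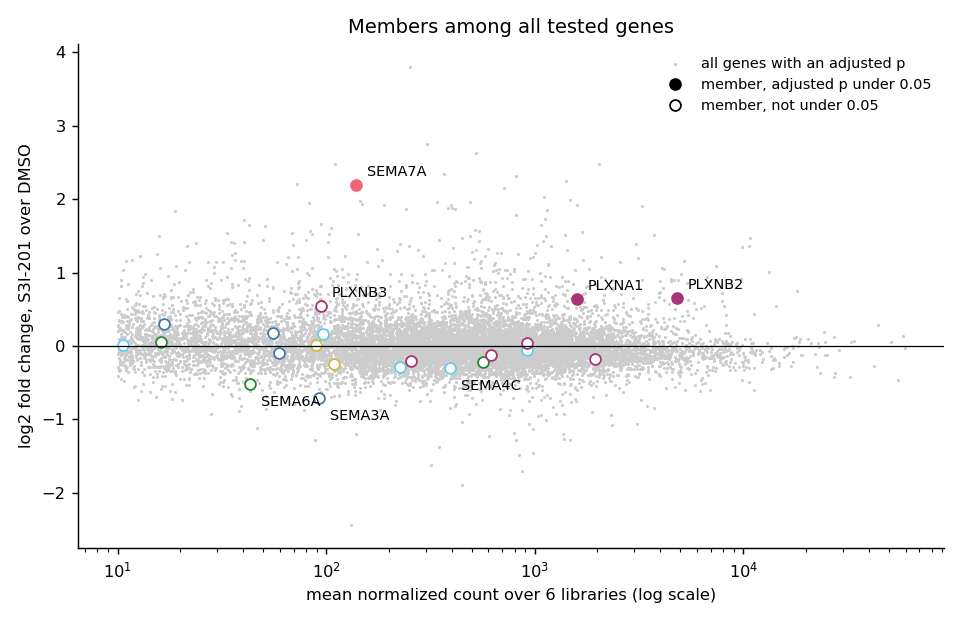
Log2 fold change, S3I-201 over DMSO (y axis), against the mean normalized count over the 6 libraries on a log scale (x axis), for all 11912 tested genes in grey and the 22 tested members in colour by class, filled where the adjusted p is under 0.05. SEMA7A lies above most grey points at a mean of 139.6, with 9 tested genes at a larger fold change. PLXNB2 and PLXNA1 lie lower, at means of 4821 and 1595.

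Among the other plexins none passed. PLXND1, the receptor that SEMA3E binds without a neuropilin, had the next highest mean after PLXNB2, 1944, and its log2 fold change in the authors' deposited table was -0.18 (implied SE 0.13, DESeq2 adjusted p = 0.587). Its 95% interval ran from -0.44 to 0.08. PLXNB1, the receptor of SEMA4D, had a mean of 618.4 and -0.13 in the authors' deposited table, with a 95% interval from -0.43 to 0.18. PLXNA3 had a mean of 919.8 and 0.04 in the authors' deposited table, with an interval from -0.28 to 0.36. PLXNB3 had a mean of 94.4, and its log2 fold change in the authors' deposited table was 0.55 (implied SE 0.23, DESeq2 adjusted p = 0.166). Exons of SRPK3 on the same strand cover 19.6% of the annotated exons of PLXNB3. Reads of the shared stretch may have gone to either gene or been left out, which could lower the level read for PLXNB3. SRPK3 itself had a mean of 8.70 in the authors' deposited table. No difference between plexins was tested, since the pooled values allow no such fit.

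Plexins were the more abundant side of the family per length. Their 7 tested members summed to 1420 mean normalized counts per kb of exon, against 528.7 for the 13 tested semaphorins and 18.7 for the 2 neuropilins. PLXNB2 alone made up 53.1% of the plexin sum with 753.8 per kb, followed by PLXND1 with 274.0, PLXNA1 with 175.9, PLXNA3 with 84.5 and PLXNB1 with 84.1. PLXNC1 with 32.6 and PLXNB3 with 14.8 per kb closed the order. The exon lengths are the merged coding-transcript exons of GENCODE 29, which may differ from the annotation that the authors counted on. The pooled table gives no spread over libraries for a level, so it cannot be said which neighbours in this order differ.

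**Figure D3:**
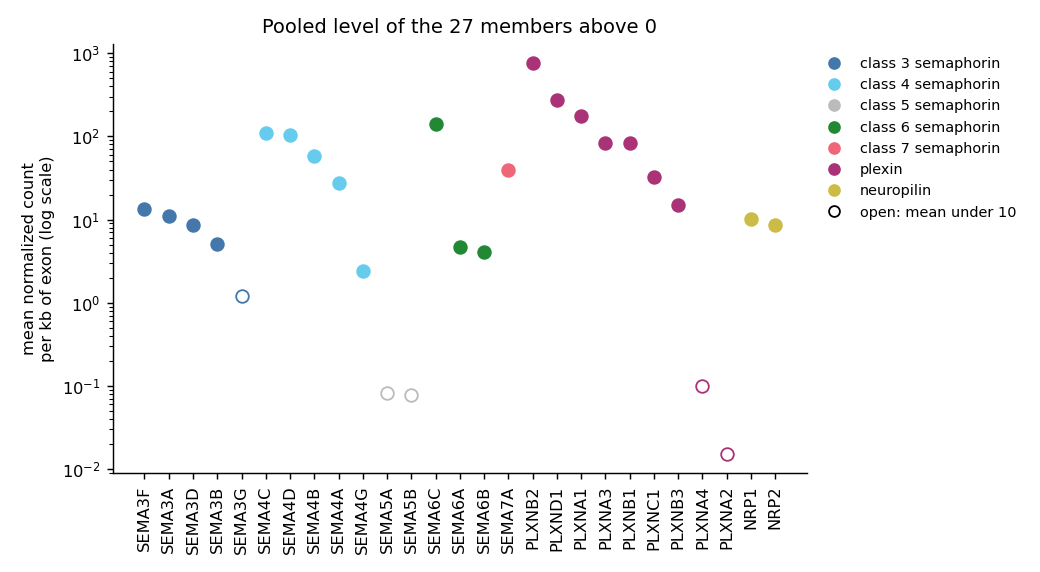
Mean normalized count over the 6 libraries per kb of exon on a log scale (y axis) for the 27 members above 0 (x axis), coloured by class, with open points for members whose mean is under 10. PLXNB2 is highest at 753.8 per kb, SEMA6C leads the semaphorins at 140.7, and both class 5 semaphorins lie below 0.1.

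Class 4 held most of the semaphorin level, with 301.1 of the 528.7 mean normalized counts per kb. SEMA4C stood at 111.2 per kb and SEMA4D at 102.7, ahead of SEMA4B at 57.5 and SEMA4A at 27.2. Of this class 5 members were tested and 0 passed by the authors' DESeq2 adjusted p, against 5.90% of all tested genes. Against 16.0% of all tested genes, 1 of them had an unadjusted p under 0.05. That one was SEMA4C, a ligand of PLXNB2, at -0.31 on the log2 scale of the authors' deposited table (implied SE 0.15, DESeq2 adjusted p = 0.298). SEMA4D, the lymphocyte surface ligand, had a mean of 917.7, and its log2 fold change in the authors' deposited table was -0.05, with a 95% interval from -0.36 to 0.25. CD72, its receptor on B cells, had a mean of 138.8 and -0.05 in the authors' deposited table (DESeq2 adjusted p = 0.950). SEMA4B had -0.29 (95% interval -0.67 to 0.09) and SEMA4A 0.17 (95% interval -0.32 to 0.66) on the log2 scale of the authors' deposited table. SEMA4G, at a mean of 10.6, had a value of 0.02 on the log2 scale of the authors' deposited table. Exons of MRPL43 on the opposite strand cover 16.8% of the exons of SEMA4G. MRPL43 had a mean of 611.6 in the authors' deposited table, and the library kit did not mark strand. Reads of the shared stretch may therefore have been added to the few of SEMA4G or left out. SEMA4F was listed at 0.

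Of the 7 secreted class 3 semaphorins 4 were tested and 0 passed by the authors' DESeq2 adjusted p, against 5.90% of all tested genes. Against 16.0% of all tested genes, 1 of them had an unadjusted p under 0.05. This was SEMA3A, the axon repellent that signals through NRP1 and A-class plexins. It had the lowest fold change of all members, -0.71 in log2 terms in the authors' deposited table, at a mean of 92.2 (implied SE 0.27, DESeq2 adjusted p = 0.0977). Its 95% interval ran from -1.23 to -0.19, and only 63 tested genes had a lower fold change. The implied group means were about 69.8 normalized counts with S3I-201 and 114.5 with DMSO. SEMA3D had -0.09, SEMA3F 0.17 and SEMA3B 0.30 on the log2 scale of the authors' deposited table, with implied SEs of 0.22 to 0.27, and each of their 95% intervals spanned 0.

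Chromosome 7 holds class 3 genes that were read and others that were listed at 0. SEMA3C, SEMA3E, SEMA3A and SEMA3D lie in this order on chromosome 7 between 80742538 and 85186855 (hg38, GENCODE 29), all on the minus strand. SEMA3A and SEMA3D had means of 92.2 and 59.4 in the authors' deposited table, whereas SEMA3C and SEMA3E were listed at 0. SEMA3F and SEMA3B, known as candidate tumour suppressors of the short arm of chromosome 3, span 50155045 to 50189075 and 50267558 to 50277546 there. Their means were 55.4 for SEMA3F and 16.7 for SEMA3B in the authors' deposited table, or 13.5 and 5.04 per kb of exon. SEMA3F was the highest class 3 member per kb, ahead of SEMA3A at 11.1 and SEMA3D at 8.53.

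Neuropilins bind class 3 semaphorins and also vascular endothelial growth factors. NRP1 had a mean of 108.5, and its log2 fold change in the authors' deposited table was -0.25 (implied SE 0.21, DESeq2 adjusted p = 0.665). NRP2, the partner preferred by SEMA3F, had a mean of 89.3, and its log2 fold change in the authors' deposited table was 0.01 (implied SE 0.21, DESeq2 adjusted p = 0.990). Per kb of exon they stood at 10.0 and 8.69 mean normalized counts, in the range of the class 3 ligands. The 95% intervals ran from -0.66 to 0.17 for NRP1 and from -0.40 to 0.42 for NRP2.

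In class 6, transmembrane ligands of A-class plexins, 3 of 4 members were tested. By the authors' DESeq2 adjusted p 0 passed, against 5.90% of all tested genes. Against 16.0% of all tested genes, 1 of them, SEMA6A, had an unadjusted p under 0.05. SEMA6C made up 94.2% of the class per kb at a mean of 566.3, and its log2 fold change in the authors' deposited table was -0.21 (95% interval -0.55 to 0.12). SEMA6A had a mean of 43.2 and -0.52 in the authors' deposited table (implied SE 0.25, DESeq2 adjusted p = 0.257). Its known receptors PLXNA2 and PLXNA4 were almost unread here, with means of 0.176 and 1.60 in the authors' deposited table. SEMA6B had a mean of 16.1 and 0.06 in the authors' deposited table, and SEMA6D was listed at 0.

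For the 5 members with a mean above 0 and under 10, the pooled mean could be taken apart into whole reads. A read adds a fixed step to the mean that depends on its library, and the steps of 3 libraries came with positive fold changes, read as S3I-201, and those of the other 3 with negative ones, read as DMSO. The libraries carry no replicate number. Where libraries are listed, the first S3I-201 library is the shallowest, with about 6600000 counts. The DMSO libraries had about 10900000 to 14100000. PLXNA2 rested on a single read, in a DMSO library. SEMA5B had 3 reads, 2 of them in S3I-201 libraries and 1 in a DMSO library. SEMA5A, reported to bind PLXNB3, had 5 reads in the S3I-201 libraries, split as 1, 3 and 1, against 1 read in the 3 DMSO libraries. PLXNA4 had 1, 4 and 2 reads in the S3I-201 libraries and 2, 0 and 1 in the DMSO libraries. Such counts are too few to show a difference at this depth, and no fold is given.

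SEMA3G had reads in all 6 libraries, 36 in total. Scaled by library size it had 6.98, 7.55 and 3.15 normalized counts in the S3I-201 libraries, against 6.33, 5.90 and 5.67 in the DMSO libraries. The groups overlap, with means of 5.89 ± 2.39 with S3I-201 and 5.97 ± 0.334 with DMSO (SD, n = 3 each). The highest and the lowest library were both S3I-201 libraries. Its log2 fold change was -0.01 in the authors' deposited table, with no adjusted p.

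**Figure D4:**
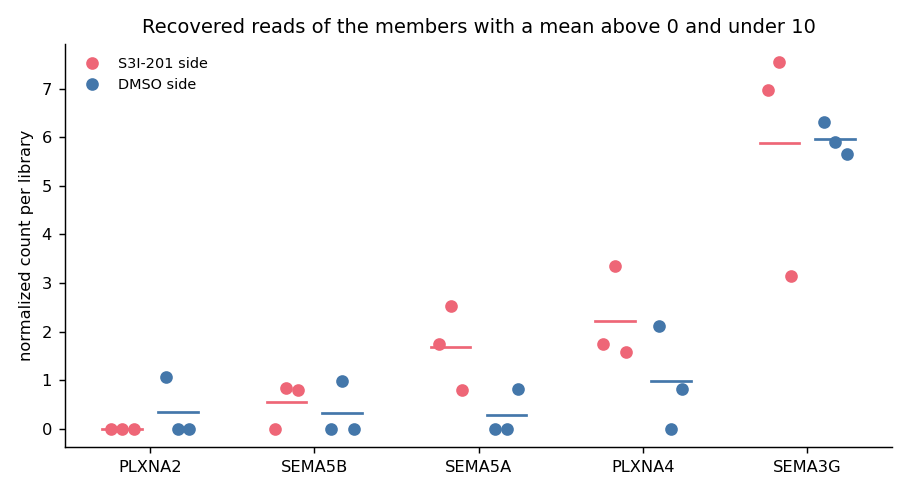
Normalized count per library (y axis) of the 5 members with a mean above 0 and under 10 (x axis), recovered from the pooled means, with S3I-201 libraries in red on the left and DMSO libraries in blue on the right of each gene; lines mark group means. The points of the groups overlap for each of the 5 genes, for SEMA5A narrowly, with the lowest S3I-201 library at 0.788 and the highest DMSO library at 0.810.

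SEMA3C, SEMA3E, SEMA4F and SEMA6D were listed at 0. A listed 0 need not mean that a gene was silent, since EIF4A1 and EIF3C, translation factors that every cell uses, were listed at 0 as well in the authors' deposited table.

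Further genes listed for the pathway were read against the same 5.90% of all tested genes called. Of 17 further receptors and coreceptors 7 were tested, and CSPG4, a membrane proteoglycan, was higher by 1.45 on the log2 scale at a mean of 49.6 in the authors' deposited table (DESeq2 adjusted p = 1.59e-06). The other 6 did not pass, CD93 at -0.58 having the next smallest adjusted p of 0.180 in the authors' deposited table, and the list's median was 0.01. Whether CSPG4 or CD93 acts with semaphorins or plexins in REH cells was not tested. MET, a kinase that pairs with B-class plexins, had a mean of only 4.12 in the authors' deposited table. Of 20 small GTPases and their regulators 17 were tested and 0 passed by the authors' DESeq2 adjusted p. An unadjusted p under 0.05 was reached by 0 as well, against 16.0% of all tested genes. Their log2 fold changes ran from -0.20 to 0.42 with a median of -0.02 in the authors' deposited table, with RND1 at 0.42 (adjusted p = 0.489) and ARHGAP35 at -0.18 (adjusted p = 0.545) having the smallest adjusted p-values.

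Of 21 cytoskeletal effectors 17 were tested and 1 was higher, which is 5.88%, against 5.90% of all tested genes called in either direction. It was FYN, a Src-family kinase that acts below SEMA3A in neurons, at 0.56 on the log2 scale and a mean of 834.8 in the authors' deposited table (DESeq2 adjusted p = 0.00944). MICAL3, an oxidase of the actin cytoskeleton, had -0.29 (DESeq2 adjusted p = 0.200) in the authors' deposited table, and the list's median was -0.09. Of 7 proteases that cleave semaphorins or their receptors 6 were tested and 0 passed by the authors' DESeq2 adjusted p, with a median of 0.14. An unadjusted p under 0.05 was reached by 0 as well, against 16.0% of all tested genes. FURIN, which processes class 3 semaphorins, had 0.31 (DESeq2 adjusted p = 0.335) and ADAM17 0.33 (DESeq2 adjusted p = 0.452) on the log2 scale of the authors' deposited table. All tested genes together had a median of -0.02.

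**Figure D5:**
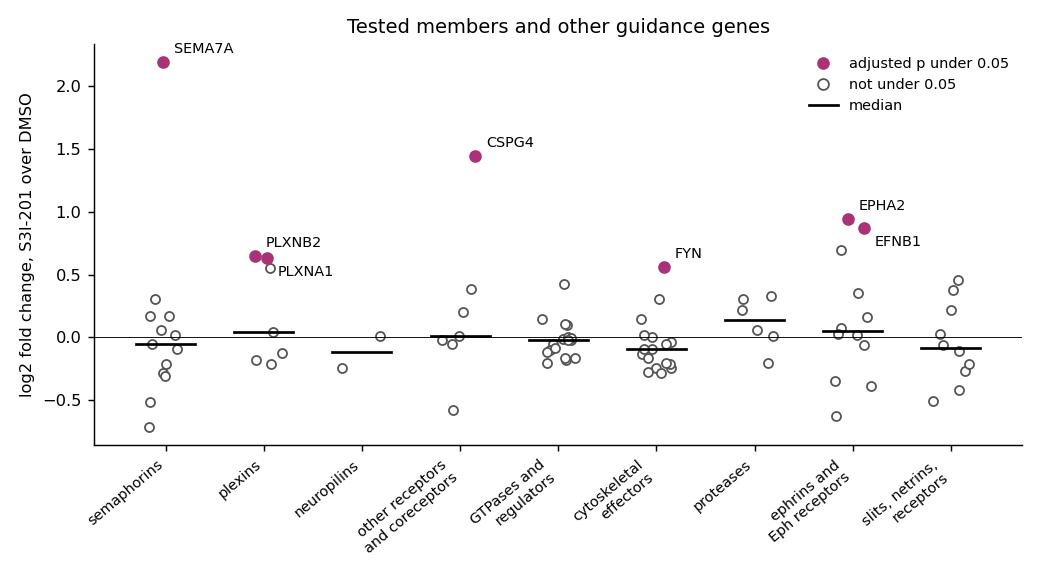
Log2 fold change, S3I-201 over DMSO (y axis), of the tested semaphorins, plexins and neuropilins and of the tested genes of 6 other lists (x axis), filled where the adjusted p is under 0.05, with black lines at the medians. Filled points are SEMA7A, PLXNB2, PLXNA1, CSPG4, FYN, EPHA2 and EFNB1, all of them positive. Over all tested genes, 530 of the 703 called were positive. Every median lies between -0.12 and 0.14.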

How the data were processed

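REH cells were treated with S3I-201 or DMSO, 3 libraries each, per the labels. TruSeq RNA v2 libraries were made, a kit that does not mark strand. The submitters' processing notes name hg38, bcl2fastq 2.19, Trimmomatic, Bowtie2, Picard, featureCounts and DESeq2. For the gene annotation and the model formula, the sources used here give no name. The deposited mean normalized count, a pooled signal, was averaged by the authors over libraries after scaling counts by size factors, per the file headers. The log2 fold change and the p-value with its adjusted p are the authors' own results, per the file headers, and DESeq2's adjusted p was taken as deposited because no values per library were given. A Benjamini-Hochberg adjustment over the 11912 genes came within 0.675% of it. The implied SE, the 95% intervals, the folds and the implied group means share the shrinkage of the fold changes.

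For genes with a mean under 10, the pooled mean was written as a sum of whole reads within 1.5e-09; 5058 of 5063 genes had exactly 1 solution, and in all 2335 with at least 75% of their normalized reads on one side the fold change had the sign of the side with more reads.

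Every tested member is named, as are genes of the other pathway and guidance lists that passed, or otherwise the 2 with the smallest adjusted p; CD93, MICAL3, EPHA7, MET, CD24, LEF1, EIF4A1, EIF3C, receptors of named ligands and overlapping genes were added after their values were seen. The members and lists were chosen with earlier results of these data known. The alternatives were thresholds of 0.01 and 0.1, a minimum fold, other minimum means, an adjustment over all 16974 genes that have a p-value, and fold changes centred on the median of each of 20 abundance bins, tested on simulated data. Python 3.11.15, pandas 2.3.3 and scipy 1.17.1 were used. Protein comparisons were not made.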

Additional observations from a re-analysis of the deposited data

How the results depend on the processing

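SEMA7A, PLXNA1 and PLXNB2 passed at an adjusted p of 0.05, after adjustment over every gene that has a p-value (adjusted p up to 0.0186) and with the abundance trend removed (adjusted p up to 0.00441). At a threshold of 0.01, or when a log2 change of 1 or more was required, 1 member was left, SEMA7A. At 0.1 SEMA3A was added. With the abundance trend removed, values of SEMA4G at -0.0442 and SEMA6B at -0.0037 became negative without passing either way, and the other 20 tested members kept their direction and call. Bin medians ran from -0.07 to 0.06. Counts of called genes in the 6 other pathway and guidance lists stayed within 1.5 times at 0.01, at 0.1, after adjustment over every gene that has a p-value and with the abundance trend removed. In 2 alternatives chosen after seeing the data they did not. With a log2 change of 1 or more required, cytoskeletal effectors had 0 called genes in place of 1 (FYN) and ephrins and Eph receptors 0 in place of 2 (EFNB1 and EPHA2). With a mean of at least 100 required, the other receptors and coreceptors had 0 in place of 1 (CSPG4) and ephrins and Eph receptors 1 in place of 2, EFNB1. Leaving out a replicate and another normalization could not be run, as both need values per library. No paired analysis was possible because the table holds no values per library that carry replicate numbers.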

Other observations

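Families of guidance genes beside the semaphorins were also read in REH cells. Of 22 ephrins and Eph receptors 12 were tested, 2 were higher with S3I-201 and 10 did not pass, against 4.45% of all tested genes higher, with a median log2 fold change of 0.05. EFNB1, a transmembrane ephrin, was higher by 0.87 at a mean of 612.9 in the authors' deposited table (DESeq2 adjusted p = 0.00151), and EPHA2, an Eph receptor kinase, by 0.94 at a mean of only 13.2 (DESeq2 adjusted p = 0.00385). EPHA7 had -0.63 in the authors' deposited table (DESeq2 adjusted p = 0.0945). Of 21 slits, netrins, repulsive guidance molecules and their receptors 10 were tested. By the authors' DESeq2 adjusted p 0 passed, against 5.90% of all tested genes. An unadjusted p under 0.05 was reached by 3, against 16.0% of all tested genes. SLIT2 had -0.51 (DESeq2 adjusted p = 0.173) and UNC5B 0.46 (DESeq2 adjusted p = 0.269) in the authors' deposited table.

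The antisense RNA SEMA6A-AS1, whose exons share 268 bases with those of SEMA6A, had 62 reads in all. They came to 3.49, 9.23 and 11.8 normalized counts in the S3I-201 libraries, against 7.38, 6.88 and 16.2 in the DMSO libraries, so the groups overlap. SEMA3B-AS1 was listed at 0 in the authors' deposited table.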
